A study of Homo sapiens with 4 samples.

Results

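The genes described here are 42 genes that encode proteins of the nucleolus and of ribosome assembly, among 20372 genes in the table of counts. They were chosen by symbol from a list written by hand, and 42 of the 42 had enough reads to be tested. RNA was sequenced from TPC1 cells, an established human papillary thyroid carcinoma line that expresses a CCDC6-RET fusion protein. For this line the methods give DMEM with 10% FBS under Western blots, and no medium under the sequencing of treated cells. Cells were exposed to BLU6864, a selective RET inhibitor, for 6 h or for 24 h, with 2 libraries at each time. Every library came from treated cells, so the effect of the inhibitor cannot be told apart from that of longer culture, and vehicle libraries were not analysed here. The labels give a dose of 100 µM and the methods 100 nM. The labels also mark both 24 h libraries, and neither 6 h library, as a re-analysis. Any difference behind this mark cannot be told apart from that of time.

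Ribosomes are assembled in the nucleolus. RNA polymerase I copies the ribosomal DNA into a long precursor, small nucleolar ribonucleoproteins (snoRNPs) guide the chemical modification of that precursor, and a large set of assembly factors cuts and folds it into the small (40S) and large (60S) subunits. Growth signals, among them ERK signaling, are known to raise this work in many cell types, and MYC is a known activator of many of its genes through a DNA motif called the E-box.

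Total counts ranged from 23917056 to 27457040 per library. Libraries of the same time differed by more than sampling noise, as the chi-square statistic divided by its degrees of freedom was 10.3 (6 h) and 7.87 (24 h), and were counted as separate replicates. Nothing in the labels says that they came from separate cultures, so P values measure the spread between these libraries, which may be technical. Among thyroid lineage markers, PAX8 had between 19124 and 22978 counts, FOXE1 between 273 and 556, and TG between 98 and 245, while NKX2-1 and TSHR had 0 counts in every library. Of 6 epithelial markers, 3 exceeded 100 counts in every library. White blood cell markers stayed at or below 5 counts, endothelial markers at or below 16, and fibroblast markers at or below 237. The 7 proliferation markers, which include MKI67, TOP2A, and CDK1, were all lower at 24 h, with log2 fold changes from -4.75 in TOP2A to -0.69 in MCM2. Their summed normalized counts were 42280 and 41750 at 6 h and 3750 and 3725 at 24 h, and their part in the results below was not tested.

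The ribosome biogenesis genes were, as a group, higher at 24 h than at 6 h. Of the 42 genes, 36 (85.7%) rose and 1 fell with an adjusted P under 0.05 in edgeR's quasi-likelihood test, while 33.0% of the 12876 genes tested rose and 32.6% fell. With the size of cutoff used in the study's methods, a log2 fold change beyond 0.5 and an unadjusted P under 0.01, 28 of the genes were higher and 1 lower, against 17.4% and 17.7% of all genes tested. Their median log2 fold change was 0.76, a 1.69-fold higher count at 24 h, whereas the median of all genes tested was 0.0029. In 37 of the 42 genes both 24 h libraries lay above both 6 h libraries, and in 2 both lay below, against 41.0% and 40.8% of all genes tested. The genes took 0.316% and 0.291% of all counts at the later time and 0.214% and 0.212% at the earlier one. Since the genes were listed with results of these libraries known, no test was made of the list as a whole. In bulk RNA, a change in the number of cells that express a gene and a change in its RNA per cell cannot be told apart.

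**Figure D1:**
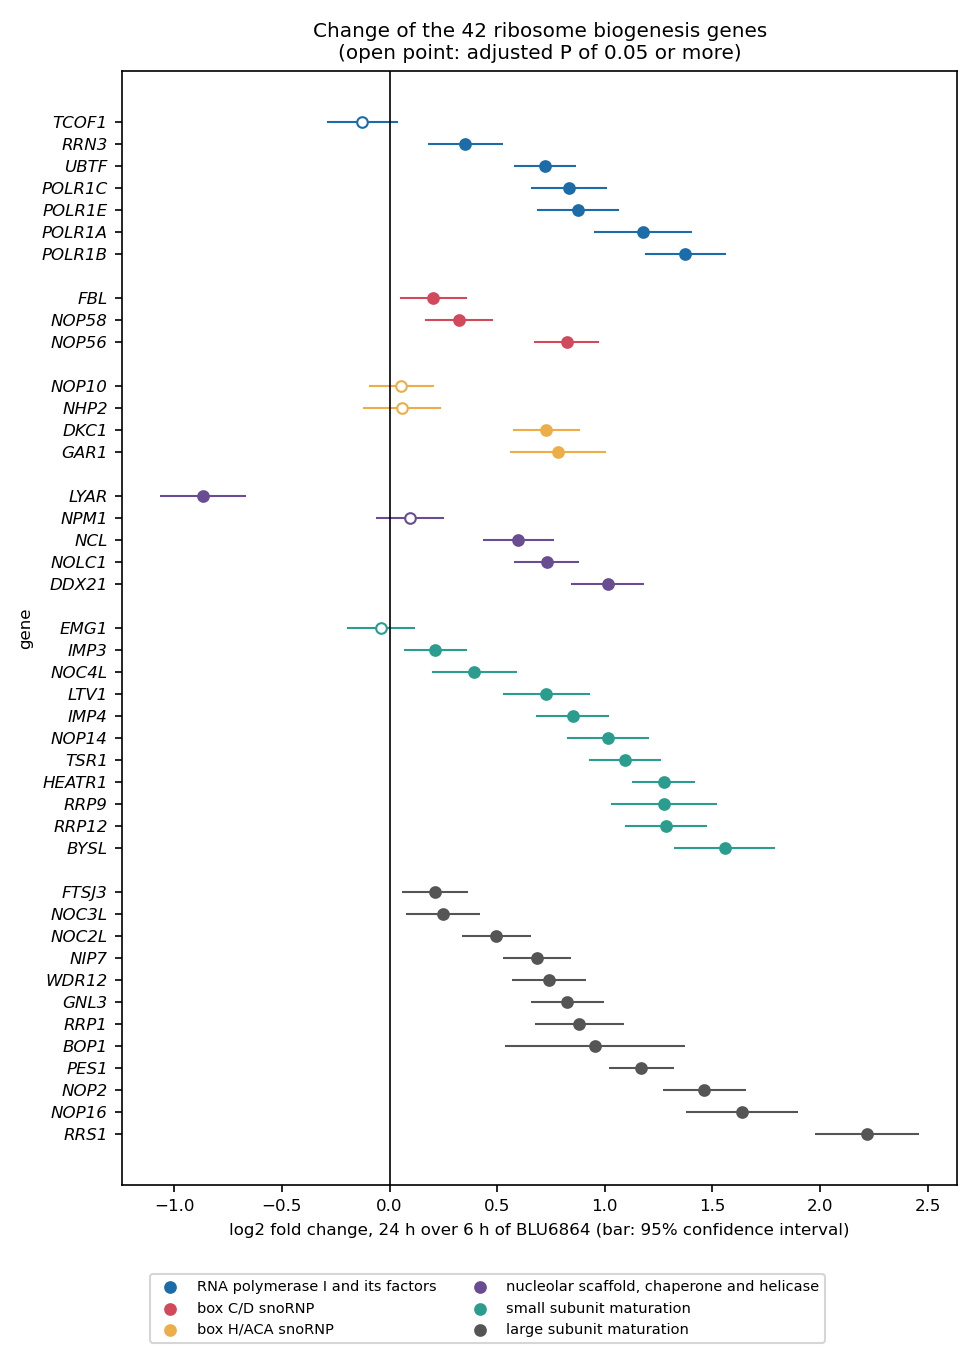
Log2 fold change of each of the 42 genes between 24 h and 6 h of BLU6864 (horizontal axis), ordered within 6 classes by role, with bars for the 95% confidence interval of edgeR's fit to 2 libraries per time. Most points lie right of 0, RRS1 lies farthest right at 2.22, LYAR is the filled point left of 0 at -0.86, and the 5 open points did not pass an adjusted P of 0.05.

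The promoters of some of these genes carry an E-box. Of the genes with the motif, those with the highest and the lowest log2 fold changes are shown. RefSeq promoter windows of GRCh38.p14, reaching from 250 bases before to 50 bases after each start site, were matched by symbol to 35 of the 42 genes. The letters CACGTG, which read the same on both strands, were found in a window of 14 of these 35 genes, in 12.6% of the 9717 tested genes with a window, and in 7.26% of all 35116 windows. In 10 of the 14 genes a match began downstream of the start site. Each sequence below is written 5′ to 3′ on the strand of the gene, with the motif in capitals and, in parentheses, the strand and the position of the first motif base counted from the start site.
BYSL (chr6:41921515-41921544, plus strand, 29): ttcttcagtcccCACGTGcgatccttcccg
NOP2 (chr12:6568242-6568268, minus strand, 36): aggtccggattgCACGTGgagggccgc
RRP9 (chr3:51941892-51941921, minus strand, -5): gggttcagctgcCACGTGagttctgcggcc
PES1 (chr22:30591880-30591909, minus strand, 14): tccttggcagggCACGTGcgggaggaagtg
NOP14 (chr4:2963374-2963403, minus strand, 16): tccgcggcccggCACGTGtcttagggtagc
DDX21 (chr10:68956604-68956633, plus strand, -31): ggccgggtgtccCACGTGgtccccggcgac
NOP10 (chr15:34343130-34343159, minus strand, -11): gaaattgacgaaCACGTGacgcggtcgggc
LYAR (chr4:4290068-4290097, minus strand, -64): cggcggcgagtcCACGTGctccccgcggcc
The upper 6 belong to genes with log2 fold changes between 1.01 and 1.56, but NOP10, with 0.05, and LYAR, with -0.86, carry the same letters. Genes with the motif that are not shown had log2 fold changes from 0.20 in FBL to 0.85 in IMP4. The windows of DDX21 and LYAR start from an alternate start site of the gene. The median log2 fold change was 0.84 in the 14 genes with the motif and 0.72 in the 21 without it. The core of the motif bound by ETS factors, CCGGAAG on either strand, was in a window of 15 of the 35 genes (42.9%) and of 21.8% of the tested genes, and the medians with and without it were 0.73 and 0.78. A match of letters is not evidence of binding, and windows were not matched for base composition.

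RNA polymerase I genes on the list rose in 6 of 7 cases, against 33.0% of all genes tested. Of 9 further polymerase I genes outside the 42, 3 rose. POLR1B, the second-largest subunit of the enzyme (ENSG00000125630, chromosome 2 of hg19 from 113299492 to 113334635), had 1178 and 1127 counts at 24 h and 442 and 418 at 6 h. The lower of the 24 h libraries lay far above the higher 6 h library. After normalization these were 1135 ± 54.4 (SD, n = 2) and 439 ± 53.8, a log2 fold change of 1.37 ± 0.0910 (standard error, SE, edgeR adjusted P = 4.44e-13). POLR1A, the catalytic subunit, had a log2 fold change of 1.18, POLR1E, which pairs with the product of CD3EAP in the enzyme, 0.88, and POLR1C, which RNA polymerase III shares, 0.83. POLR1A spread more than the others, with 794 and 956 counts at 24 h and 296 and 456 at 6 h, but the times did not overlap. The position of POLR1C overlaps XPO5, whose own log2 fold change was 0.99.

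Of the factors that bring RNA polymerase I to the ribosomal DNA, UBTF was the most abundant. This HMG-box protein, which keeps ribosomal DNA open (ENSG00000108312, chromosome 17 from 42282401 to 42298994), had 3644 and 3620 counts at 24 h and 1969 and 2306 at 6 h. The fitted log2 difference was 0.72 ± 0.0705 (SE, edgeR adjusted P = 1.11e-09). RRN3, which links the polymerase to its promoter, rose less, with a change of 0.35 on the log2 scale with an adjusted P of 0.000652 in edgeR. Its position overlaps PDXDC1, whose own log2 fold change was 0.20. TCOF1, the nucleolar protein treacle, did not pass the test. It had 933 and 897 counts at 24 h and 949 and 986 at 6 h, with a log2 fold change of -0.13 and a 95% confidence interval from -0.29 to 0.04, so a rise of the size seen in UBTF lies outside its interval. The difference between genes was not tested.

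Box C/D snoRNPs carry the enzyme that methylates ribosomal RNA. The 3 of their core genes on the list were higher at 24 h, against 33.0% of all genes tested. NHP2L1, a core gene outside the list that was looked up after the other values were seen, had a log2 fold change of 0.15 and an edgeR adjusted P of 0.0820. NOP56, a scaffold of the particle (ENSG00000101361, chromosome 20 from 2632791 to 2639039), had 2714 and 2483 counts at 24 h and 1327 and 1522 at 6 h. Normalized counts were 2560 ± 203 (SD, n = 2) and 1446 ± 19.6, a log2 fold change of 0.82 ± 0.0736 (SE, edgeR adjusted P = 1.99e-10). NOP58, its partner in the scaffold, had a log2 fold change of 0.32 with an interval from 0.16 to 0.48, below that of NOP56, which ran from 0.67 to 0.97. FBL, the methyltransferase fibrillarin, changed least of the 3 listed genes, with 2128 and 1930 counts at 24 h and 1677 and 1733 at 6 h. The log2 value of 0.20 for this change had an edgeR adjusted P of 0.0200, and DESeq2 did not call it.

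Box H/ACA snoRNPs convert uridine to pseudouridine. Of the genes of their 4 proteins, 2 were called higher and 2 were not called, against 33.0% of all genes tested called higher. With so few genes this share says little, and the difference between the genes was not tested. DKC1, the pseudouridine synthase dyskerin, had 3227 and 2917 counts at 24 h and 1769 and 1819 at 6 h, which is a change of 0.73 on the log2 scale with an adjusted P of 4.07e-09 in edgeR. GAR1, a glycine- and arginine-rich subunit (ENSG00000109534, chromosome 4 from 110736666 to 110745893), had 433 and 404 counts at 24 h and 233 and 238 at 6 h. It had a log2 fold change of 0.78 ± 0.109 (SE, edgeR adjusted P = 5.37e-07). The remaining pair showed overlapping libraries. NOP10, the smallest subunit and the most abundant of the 4 in counts (ENSG00000182117, chromosome 15 from 34633917 to 34635378), had 3473 and 3570 counts at 24 h and 2920 and 3673 at 6 h. Its 95% confidence interval ran from -0.10 to 0.20, and that of NHP2, an RNA-binding subunit, from -0.12 to 0.24, while those of DKC1 and GAR1 began at 0.57 and 0.56. NHP2 overlaps RMND5B, and the sign of both NHP2 and NOP10 turned when replicate 1 of 6 h was left out, to -0.05 and -0.02.

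**Figure D2:**
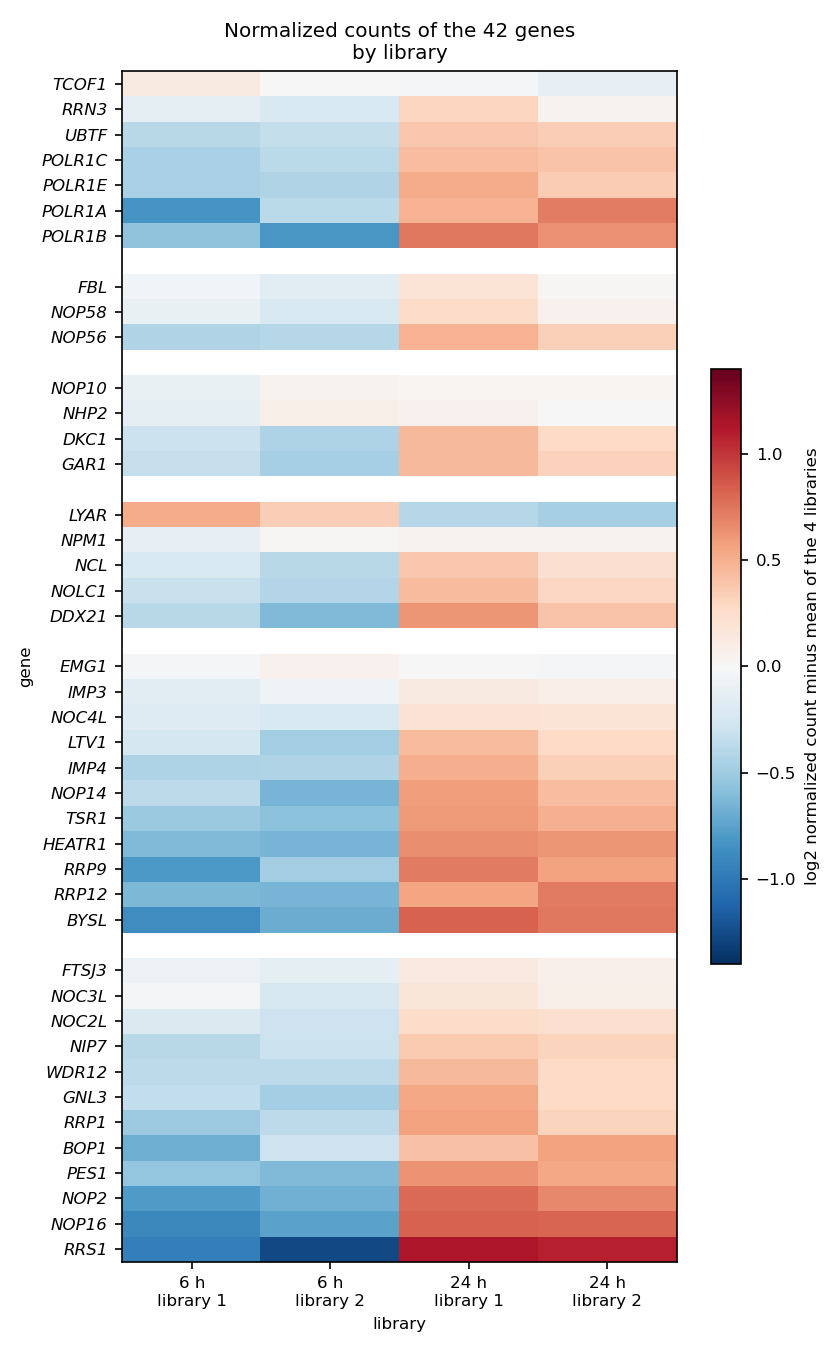
Normalized counts of the 42 genes in each library, as the log2 value minus the mean of the 4 libraries (color), with genes in rows grouped by role in the same order as the plot of changes. The 24 h columns are red and the 6 h columns blue for most genes, LYAR shows the opposite, and TCOF1, NOP10, NHP2, NPM1, and EMG1 are pale in all 4 columns.

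The abundant structural proteins of the nucleolus did not move as 1 group. NPM1, nucleophosmin, a chaperone of the outer nucleolus (ENSG00000181163, chromosome 5 from 170814120 to 170838141), had the most counts of the 42 genes, 11919 and 12143 at 24 h and 9794 and 12102 at 6 h. The higher 6 h count lay between the 24 h counts before normalization and below both after it, and the change of 0.09 ± 0.0764 (SE) on the log2 scale had an edgeR adjusted P of 0.282. NCL, nucleolin, an RNA-binding protein of similar count, had 12652 and 11699 at 24 h and 7794 and 7755 at 6 h. That is a 1.51-fold rise, with a log2 fold change of 0.60, an edgeR adjusted P of 3.22e-07, and an interval from 0.43 to 0.76 that lies above the upper bound of 0.25 for NPM1. NPM1 has many processed pseudogenes, and how reads shared with such copies were counted is not given in the sources used here.

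DDX21, an RNA helicase of the nucleolus (ENSG00000165732, chromosome 10 from 70715884 to 70744829), rose most among these. It had 6171 and 5440 counts at 24 h and 2834 and 2725 at 6 h, a 2.02-fold rise with a log2 fold change of 1.01 ± 0.0831 (SE, edgeR adjusted P = 3.64e-11). NOLC1, a snoRNP chaperone, rose with a log2 fold change of 0.73. LYAR, a nucleolar zinc finger protein, went the other way (ENSG00000145220, chromosome 4 from 4269428 to 4291896). It had 349 and 343 counts at 24 h and 612 and 607 at 6 h, so raw counts of replicates were nearly equal and the times far apart. Normalized counts fell from 622 ± 55.4 to 341 ± 9.84 (SD, n = 2), a log2 fold change of -0.86 ± 0.0972 (SE, edgeR adjusted P = 1.47e-08). It was the sole gene of the 42 that was called lower, and it stayed so under each alternative run.

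Genes of small subunit assembly rose in 10 of 11 cases (90.9%), against 33.0% of all genes tested. Their median log2 fold change was 1.01, the highest median of the 6 classes. BYSL, bystin, which acts on the late 40S precursor (ENSG00000112578, chromosome 6 from 41888926 to 41900784), had 481 and 466 counts at 24 h and 137 and 175 at 6 h. Normalized counts were 466 ± 18.2 (SD, n = 2) and 158 ± 14.1, a 2.94-fold rise with a log2 fold change of 1.56 ± 0.114 (SE, edgeR adjusted P = 3.47e-12). HEATR1, a large scaffold of the early processome with the most counts in this class (ENSG00000119285, chromosome 1 from 236712305 to 236767804), had 2827 and 2835 counts at 24 h and 1082 and 1187 at 6 h. This gave a log2 fold change of 1.27 ± 0.0710 (SE, edgeR adjusted P = 1.14e-14).

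RRP9, a protein of the U3 snoRNP that directs the first cuts of the precursor, had a log2 fold change of 1.27, and RRP12, an export factor, 1.28. TSR1 and LTV1, which bind late 40S precursors, had 1.09 and 0.73, NOP14 1.01, and its partner NOC4L 0.39. IMP3 and IMP4, which sit together in the U3 snoRNP, differed in size, with intervals from 0.07 to 0.36 and from 0.68 to 1.02. EMG1, the methyltransferase of a modified uridine in 18S ribosomal RNA, had 1021 and 1028 counts at 24 h and 929 and 1114 at 6 h. The times overlapped, and its log2 fold change was -0.04 (interval from -0.20 to 0.12). EMG1 overlaps 3 other genes, among them PHB2, which had at least 6501 counts in each library, and the strand setting of the count is not given in the sources used here.

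Genes of large subunit assembly were called higher in 12 of 12 cases, against 33.0% of all genes tested. RRS1, which brings the 5S ribonucleoprotein into the 60S precursor (ENSG00000179041), changed most of all 42 genes. It had 601 and 593 counts at 24 h and 130 and 118 at 6 h, or 588 ± 15.3 and 127 ± 19.2 normalized counts (SD, n = 2), a 4.66-fold rise. Its log2 fold change was 2.22 ± 0.117 (SE, edgeR adjusted P = 3.42e-15). RRS1 overlaps ADHFE1, which had at most 185 counts and a log2 fold change of 0.50.

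NOP16, a small 60S assembly factor (ENSG00000048162, chromosome 5 from 175810949 to 175815976), had 354 and 361 counts at 24 h and 99 and 124 at 6 h. The fitted log2 fold change was 1.64 ± 0.126 (SE, edgeR adjusted P = 1.02e-11). NOP2, which methylates a cytosine of 28S ribosomal RNA (ENSG00000111641, chromosome 12 from 6666029 to 6677857), had 910 and 852 counts at 24 h and 279 and 342 at 6 h. On the log2 scale, the change was 1.46 ± 0.0940 (SE, edgeR adjusted P = 2.40e-13). In both genes the lower 24 h count was more than double the higher 6 h count.

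PES1, BOP1, and WDR12 encode the PeBoW complex, which acts in the processing of the 60S precursor, and are among the 12 large subunit genes. All 3 genes were called higher, against 33.0% of all genes tested. PES1, pescadillo (ENSG00000100029, chromosome 22 from 30972612 to 31003070), had 2505 and 2404 counts at 24 h and 1022 and 1091 at 6 h, which on the log2 scale is a change of 1.17 ± 0.0728 (SE, edgeR adjusted P = 1.20e-13). WDR12 rose by 0.74 on the log2 scale. BOP1 had the fewest counts of the 42 genes, 88 and 100 at 24 h and 38 and 56 at 6 h, so its log2 fold change of 0.95 has a wide interval, from 0.54 to 1.37. The 3 intervals do not all overlap, since that of PES1 starts at 1.02 and that of WDR12 ends at 0.91. PES1 overlaps TCN2, which had 2886 and 3051 counts at 24 h and 1444 and 1432 at 6 h.

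Of the remaining 60S genes, RRP1, GNL3 (the GTPase nucleostemin), and NIP7 had log2 fold changes of 0.88, 0.83, and 0.68. NOC2L, which carries precursors through the nucleoplasm, had 0.50 and NOC3L, its partner, 0.25. FTSJ3, a methyltransferase, changed least with 0.21. It overlaps PSMC5, which had at least 1796 counts in each library and a log2 fold change of -0.55. NOC3L overlaps PLCE1, whose log2 fold change was -1.15. The calls of FTSJ3, NOC3L, and FBL were the weakest, with edgeR adjusted P values of 0.0158, 0.0109, and 0.0200, and these 3 were not called by DESeq2 or when replicate 1 of 24 h or replicate 2 of 6 h was left out. IMP3 was not called without replicate 1 of 6 h, with a log2 fold change of 0.17. The positions of 19 of the 42 genes overlap another gene of the table. Among the 23 that overlap none, 19 (82.6%) rose and 1 (4.35%) fell, against 33.0% and 32.6% of all genes tested. The median log2 fold change of the 23 was 0.78.

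**Figure D3:**
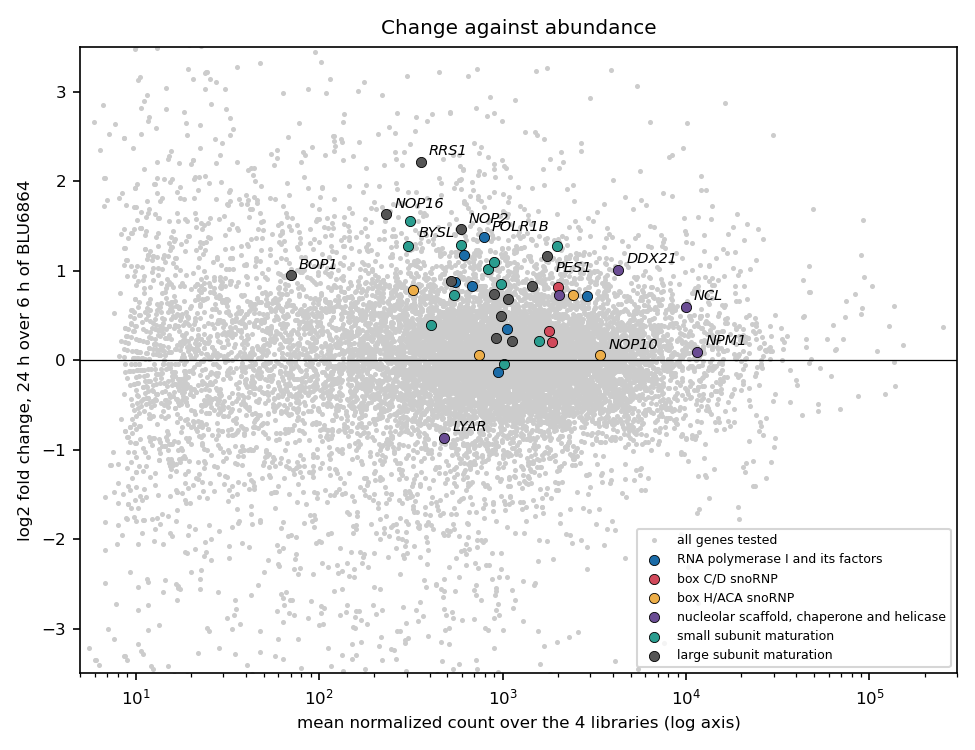
Log2 fold change between 24 h and 6 h of BLU6864 against the mean normalized count over the 4 libraries (log axis), with all genes tested in gray and the 42 genes in color by role; 203 gray points lie beyond 3.5 in either direction and are not drawn. The 42 genes range from 69.9 mean normalized counts in BOP1 to 11469 in NPM1, and those that rose most, RRS1, NOP16, BYSL, NOP2, and POLR1B, all lie under 1000.

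Other genes of the same pathway, taken from lists written by hand, also rose more often than they fell. Of 124 such genes, 81 (65.3%) were higher and 9 (7.26%) lower at an edgeR adjusted P under 0.05. Among all genes tested, 33.0% were higher and 32.6% lower. The median log2 fold change of the 124 was 0.34. Small subunit genes outside the 42 rose in 32 of 41 cases (78.0%) and fell in 3 (7.32%), with a median of 0.49. RCL1, a processome protein, and WDR43, which binds the nascent precursor, rose most, with log2 fold changes of 1.53 and 1.39, while KRR1 and UTP11L had -0.48 and -0.36. Of 47 further 60S genes, 34 (72.3%) rose and 1 (2.13%) fell, with a median of 0.42. URB2 and MYBBP1A rose most, with 1.98 and 1.84, and RPF1 was the gene that fell, with -0.21.

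Of 9 RNA polymerase I genes outside the 42, 3 (33.3%) rose at an adjusted P under 0.05 in edgeR, close to the 33.0% of all genes tested. None (0) fell, and the median was 0.09. CD3EAP, the older symbol of the subunit POLR1G, had 149 and 173 counts at 24 h and 41 and 47 at 6 h. The fitted log2 difference was 1.82 (standard error 0.181). TWISTNB, the older symbol of POLR1F, had 0.67. Of 10 snoRNP assembly factors, 5 rose and 1 fell, with a median of 0.17, and with so few genes this says little beside the 33.0% and 32.6% of all genes tested. ZNHIT6 and NUFIP1, which help build box C/D particles, rose by 1.22 and 0.88 on the log2 scale, and RUVBL2, an ATPase with roles in many other complexes, had -0.23.

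Genes of the structural proteins of the ribosome had a lower median change than its assembly genes. Of 81 cytosolic ribosomal protein genes tested, 33 (40.7%) rose and 3 (3.7%) fell, against 33.0% and 32.6% of all genes tested. The share that rose is near that of all genes, while the share that fell is far below it. Of the 81, 68 had a positive log2 fold change and 13 a negative one, against 6471 and 6405 of the 12876 genes tested. The median log2 fold change of the 81 was 0.15, and 2 passed the cutoff of 0.5 upward. Of 75 mitochondrial ribosomal protein genes, 19 (25.3%) were higher and 23 (30.7%) lower, both near the shares of all genes tested, with a median of -0.07. These are counts and medians of lists, and the difference between lists was not tested.

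**Figure D4:**
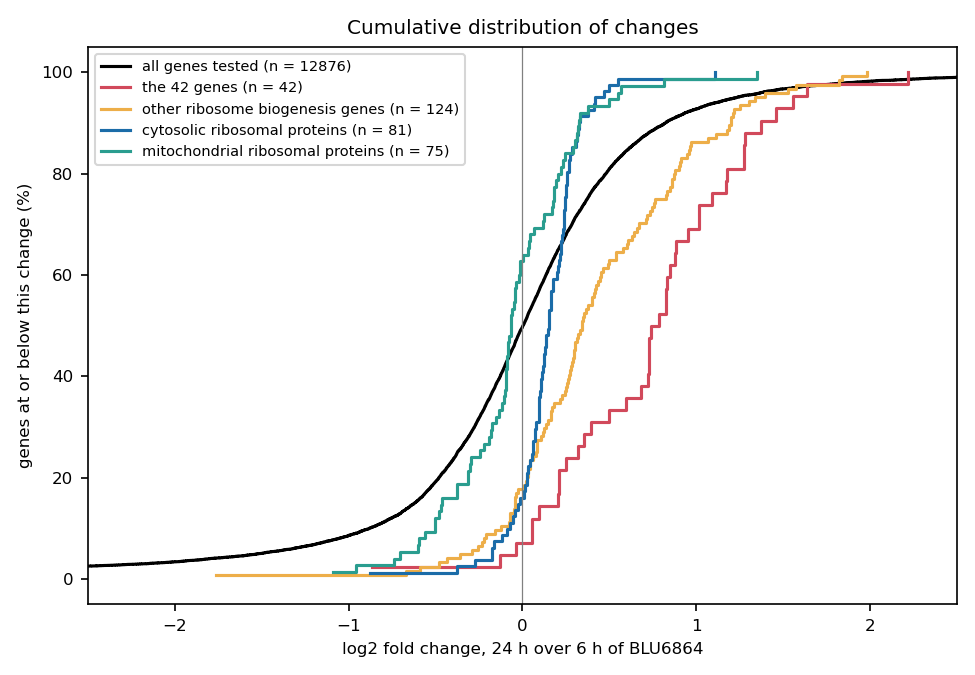
Cumulative share of genes (vertical axis, %) at or below each log2 fold change between 24 h and 6 h of BLU6864 (horizontal axis) for all genes tested and 4 lists, with n in the key; 451 of all genes tested lie beyond 2.5 in either direction. The curve of the 42 genes lies to the right with a median of 0.76, followed by the other ribosome biogenesis genes with 0.34 and the cytosolic ribosomal protein genes with 0.15, and the mitochondrial ribosomal protein genes cross the middle at -0.07.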

How the data were processed

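RNA-seq libraries of BLU6864-treated TPC1 cells were made in duplicate, 2 at 6 h and 2 at 24 h. The authors aligned reads with STAR to hg19, per the labels, and deposited the raw count of reads per gene. The labels describe single-end reads and the methods paired-end reads, and the counting program and its strand setting are not given in the sources used here. The authors also deposited a normalized signal, which is each count divided by a DESeq2 size factor of its library. Their own fold changes, standard errors, and P values were not used. Columns of per-sample values without a matching label numbered 0.

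Raw counts of 12876 genes kept by filterByExpr entered edgeR 4.0.16 (R 4.3.3), with TMM scaling, the quasi-likelihood test, time as the single factor, and Benjamini-Hochberg adjustment over all of these genes. Standard errors and 95% intervals came from each fold change together with its F statistic. Normalized counts are raw counts divided by the relative TMM-scaled library size. The biological coefficient of variation was 0.0521, estimated mostly from all genes together, since each time has 2 libraries. Intervals cover the spread between these libraries only. The procedure was tested on simulated data in which a small part of the genes changed, far fewer than were called here. How it behaves with as many changed genes was not tested.

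The 42 genes, their 6 classes, the other lists, and the markers were chosen with earlier results of these data known. The 11 renamed genes were found by older symbols, and the marker PECAM1 was not analysed here. A thyroid marker of the list is not reported here. Genes with values for every library were, in each class, those with the largest rise, the largest fall, and the most counts, and the 5 largest rises and falls overall. Others were added after their values were seen. Outside the 42, up to 2 rises and 2 falls per list with a mean normalized count of at least 100 were named. Motifs were searched in RefSeq promoter windows of GRCh38.p14. Gene positions are those of the table and were not mixed with that build. Alternatives were DESeq2 1.42.0, library size alone, upper quartile scaling, other filters, a stricter adjusted P of 0.01, a replicate block, and fits that omitted 1 library in turn. Plotting used Python 3.11.15 and matplotlib 3.10.9.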

Additional observations from a re-analysis of the deposited data

How the results depend on the processing

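Between 32 and 36 of the 42 genes were called higher and 1 lower under every alternative run, the fewest with an adjusted P under 0.01, and 28 or 29 passed the upward cutoffs of the methods. Other pathway genes called higher numbered between 74 and 84, and those called lower between 7 and 12. The median log2 fold change of 0.76 was 0.72 with library size alone and 0.79 with upper quartile scaling, which moved the median of all genes to -0.040 and 0.033, and ranged from 0.70 to 0.84 with each library left out. The value without replicate 2 of 24 h, 0.84, differed from 0.76 by about the SD of 0.0805 over the 4 pairs of libraries, whose medians ran from 0.677 to 0.853, and the cause was not tested. Fits without a library leave 1 in an arm, which is assumed to vary like the other arm. Of 462 values of single genes under these alternatives, 16 were no longer called and 3 changed sign, all 3 in genes that were not called and in fits with a library left out. NHP2 ranged from -0.0465 to 0.17, NOP10 from -0.0234 to 0.14, and EMG1 from -0.0833 to 0.0085. FBL was 0.12 without replicate 1 of 24 h and 0.14 without replicate 2 of 6 h, where NOC3L was 0.21 and 0.15 and FTSJ3 0.18 in both fits. With library size alone, FBL was 0.16 and FTSJ3 0.17, and neither was called. Replicate numbers 1 and 2 occur at both times, but the sources do not say what they mark, and deviations of same-numbered libraries correlated at 0.0757 across genes. A fit with replicate block called 36 of the 42 higher and 1 lower, and no call among the 42 changed. BOP1 had at most 100 counts in a library, and so few counts limit its precision. Why its count was low was not tested.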

Other observations

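The exosome and its cofactors, which trim the 3′ ends of ribosomal RNA precursors and degrade many other RNAs, included genes called in each direction. Of 17 genes, 7 (41.2%) rose and 4 (23.5%) fell at an edgeR adjusted P under 0.05, not far from the 33.0% and 32.6% of all genes tested, and their median log2 fold change was 0.08. EXOSC8, a subunit of the exosome ring, had 365 and 367 counts at 24 h and 1052 and 1369 at 6 h. The log2 fold change of -1.77 (standard error 0.0915) was the largest fall of the 124 pathway genes outside the 42. EXOSC9, a ring subunit as well, had -0.67, whereas EXOSC5 and EXOSC7, which are also ring subunits, rose by 0.95 and 0.54 on the log2 scale. EXOSC5 had 379 and 318 counts at 24 h and 176 and 174 at 6 h, so in EXOSC5 as in EXOSC8 the libraries of the 2 times did not overlap.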
